A study of Mus musculus with 48 samples.

Results

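Col1a1, Col1a2, Col3a1, Col4a1, Col14a1, Dcn, Lum, Reln, Des and Lrat, 10 genes of hepatic stellate cells and of the extracellular matrix, were followed by symbol in mouse liver that was kept frozen (FROZ) or was fixed in formalin and embedded in paraffin (FFPE). Of these 10 genes, 9 were listed among the 11275 genes of the FROZ table and 8 among the 6673 genes of the FFPE table. Des, which encodes the intermediate filament protein desmin, has no value here and was not analysed, and Col14a1 was analysed in FROZ alone. Archival liver of mixed lobes came from 24 male B6C3F1 mice that were 4 weeks old and had received dichloroacetic acid (DCA), a by-product of water chlorination, in drinking water for 6 days. Vehicle mice drank water without DCA (0 mg/kg-d), and the other groups drank 1.0 g/L (198 mg/kg-d), 2.0 g/L (313 mg/kg-d) or 3.5 g/L (427 mg/kg-d). Each group held 6 mice, and each mouse gave a FROZ and an FFPE library. TempO-Seq, in which a pair of detector oligos is ligated on its transcript, amplified and sequenced, gave the values. Levels are log2(CPM + 1), with CPM the reads of a gene per 1000000 mapped reads of the library. A library held 6.69 to 9.84 M mapped reads in FROZ and 1.83 to 6.01 M in FFPE, as recovered from the steps of the low values. The paper reports that a smaller share of reads aligned in FFPE than in FROZ, so mapped reads are fewer than the reads sequenced. Between 12 and 61 genes of a FROZ library and between 65 and 1580 genes of an FFPE library were at 0.

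Hepatic stellate cells lie between hepatocytes and the sinusoidal endothelium and store vitamin A as retinyl esters, which the enzyme encoded by Lrat makes from retinol. When liver is injured they can lose this store, turn into myofibroblasts and lay down matrix. Col1a1 and Col1a2 encode the chains of type I collagen and Col3a1 that of type III collagen, the fibrillar collagens of scar, whereas Col4a1 encodes a chain of the type IV collagen of basement membrane and Col14a1 a collagen that associates with fibrils. Dcn (decorin) and Lum (lumican) encode small leucine-rich proteoglycans that bind collagen fibrils, and Reln encodes reelin, a secreted glycoprotein made in liver by stellate cells. Portal fibroblasts and vascular cells also make several of these collagens and proteoglycans. Of these, Lrat and Reln mark stellate cells in liver, and they held at least 136 and 84 reads in every FROZ library. In whole liver, fewer cells of a type and less RNA per cell cannot be told apart.

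Col1a1 lies on chromosome 11 (94936224 to 94953042, plus strand of GRCm38, GENCODE annotation), and Col1a2 on chromosome 6 (4504814 to 4541544, plus strand). Dcn (97479609 to 97518143) and Lum (97565128 to 97572703) are neighbours on the plus strand of chromosome 10. Lrat lies on the minus strand of chromosome 3 (82892579 to 82903973) and Reln on the minus strand of chromosome 5 (21884454 to 22344702). Of the 50-base windows of its transcripts, Col3a1 on chromosome 1 (45311538 to 45349706, plus strand) shared 0.927% with another gene, and Col1a1, Dcn, Lum and Lrat shared none. RefSeq promoters (GRCm38.p6, 250 bases before to 50 after the start) matched 6 of the 10 genes. Those of Col1a2 and Col3a1, whose levels moved together between animals, and of Lrat, which responded in the other direction from Dcn and Lum, are shown 5′ to 3′ on the strand of the gene. Capitals mark matches on either strand to the motif with the letters CCAAT, to the box spelled TATAAA, or to the GC box, spelled GGGCGG.
Col1a2, chr6:4505368-4505667, plus strand: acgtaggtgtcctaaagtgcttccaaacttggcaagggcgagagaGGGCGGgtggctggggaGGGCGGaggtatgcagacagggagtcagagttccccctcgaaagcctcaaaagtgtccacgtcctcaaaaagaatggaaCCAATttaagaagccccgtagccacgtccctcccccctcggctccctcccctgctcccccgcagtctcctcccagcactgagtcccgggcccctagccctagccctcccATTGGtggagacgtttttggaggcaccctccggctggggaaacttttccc
Col3a1, chr1:45311288-45311587, plus strand: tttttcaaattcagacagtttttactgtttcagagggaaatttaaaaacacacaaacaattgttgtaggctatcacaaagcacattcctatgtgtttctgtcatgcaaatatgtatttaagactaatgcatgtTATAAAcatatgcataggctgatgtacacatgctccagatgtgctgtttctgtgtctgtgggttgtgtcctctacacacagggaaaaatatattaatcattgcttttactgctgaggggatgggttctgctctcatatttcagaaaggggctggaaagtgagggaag
Lrat, chr3:82903925-82904224, minus strand: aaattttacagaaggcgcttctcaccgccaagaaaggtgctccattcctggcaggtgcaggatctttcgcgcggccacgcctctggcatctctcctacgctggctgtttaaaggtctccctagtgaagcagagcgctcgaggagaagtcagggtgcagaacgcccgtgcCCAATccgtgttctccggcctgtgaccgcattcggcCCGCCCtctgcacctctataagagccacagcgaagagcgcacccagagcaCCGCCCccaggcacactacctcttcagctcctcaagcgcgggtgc
In these windows, Col1a2 held 2 CCAAT and 2 GC box matches, Col3a1 held 1 TATAAA match and neither of the others, and Lrat held 1 CCAAT and 2 GC box matches. Among 32851 RefSeq promoters of 300 bases, 37.4% held CCAAT, 13.6% TATAAA and 35.7% the GC box, so that each match is a common one. The GC content was 61.0% for Col1a2, 37.7% for Col3a1 and 60.7% for Lrat, with a median of 52.7% over all promoters.

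In FROZ liver, Dcn fell at 313 and 427 mg/kg-d, Lum fell at 313 mg/kg-d, and Lrat rose at 313 mg/kg-d, while none of the 5 collagen genes nor Reln passed the test at any dose. Calls were made by limma on all 11275 genes at an FDR (Benjamini-Hochberg adjusted p) under 0.05. At 198 mg/kg-d, 0 of 9 members were called, against a background of 0.443% of all genes lower and 1.12% higher. At 313 mg/kg-d, 2 of 9 were lower and 1 higher, against 6.15% lower and 20.5% higher, and at 427 mg/kg-d 1 of 9 was lower and 0 higher, against 7.33% lower and 22.7% higher. No member was a DEG (FDR under 0.05 and a fold change above 2), against 0.106% of the genes at the lowest dose, 2.31% at the middle dose and 3.5% at the highest. For no member did the 6 treated animals all lie outside the range of the 6 vehicle animals, which held for 1.89, 11.5 and 14.7% of genes. The median log2 fold change of the 9 members was -0.07, -0.17 and -0.18 at the rising doses, and that of all genes was 0.070, 0.11 and 0.10, which became -0.0030, -0.0044 and -0.0069 under median-ratio scaling.

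Dcn in FROZ ran from 5.82 to 6.52 with a median of 5.99 in vehicle animals, and from 5.63 to 5.96 with a median of 5.85 at 198 mg/kg-d. It ran from 5.47 to 5.89 with a median of 5.72 at 313 mg/kg-d. The highest dose group ran from 5.47 to 5.93 with a median of 5.64. Each of the 6 animals at every DCA dose lay below the vehicle median, and 3, 4 and 5 of 6 lay below the lowest vehicle animal in the order of the doses, so that the groups overlapped. The log2 fold change was -0.23 ± 0.10 (SE, n = 6 per group, adjusted p = 0.242) at 198 mg/kg-d, -0.35 ± 0.10 (adjusted p = 0.0106) at 313 mg/kg-d and -0.41 ± 0.10 (adjusted p = 0.00247) at 427 mg/kg-d. The last is a fold of 0.754 on the scale of CPM + 1. These calls held when any single animal was left out (24 of 24 fits at each of 313 and 427 mg/kg-d) and under each of 6 other settings. Over all 24 animals Dcn fell by 0.098 on the log2 scale per 100 mg/kg-d (SE 0.022, adjusted p = 0.00096).

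Lum in FROZ had a vehicle range of 4.85 to 5.50 and a median of 4.96, and a range of 4.61 to 5.19 and a median of 4.93 at 198 mg/kg-d. The middle dose group ran from 4.15 to 5.02 with a median of 4.70. At 427 mg/kg-d it ran from 4.35 to 5.12 with a median of 4.68. The groups overlapped, and 3, 5 and 4 of 6 treated animals lay below the lowest vehicle animal at 198, 313 and 427 mg/kg-d. The log2 fold change was -0.13 ± 0.14 (SE, adjusted p = 0.687) at 198 mg/kg-d, -0.43 ± 0.14 (adjusted p = 0.0283) at 313 mg/kg-d and -0.36 ± 0.14 (adjusted p = 0.0603) at 427 mg/kg-d. The call at 313 mg/kg-d was lost without animal 4, 5, 76 or 77 (adjusted p = 0.0608, 0.0831, 0.0884 and 0.0527), and a call at 427 mg/kg-d was gained without animal 7, 76, 99 or 101 (adjusted p = 0.0487, 0.0433, 0.0462 and 0.0210). Lum had a slope of -0.098 per 100 mg/kg-d (SE 0.033, adjusted p = 0.0214), which passed the test except without animal 5 (adjusted p = 0.0711).

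Lrat in FROZ ran from 4.63 to 5.38 with a median of 4.94 in vehicle animals and from 4.24 to 5.40 with a median of 4.84 at 198 mg/kg-d. It ran from 5.14 to 5.94 with a median of 5.67 at 313 mg/kg-d. The highest dose group ran from 4.87 to 6.05 with a median of 5.36. At 313 mg/kg-d 5 of 6 animals lay above the highest vehicle animal, and at 427 mg/kg-d 3 of 6 did. The log2 fold change was -0.12 ± 0.19 (SE, adjusted p = 0.796) at 198 mg/kg-d, 0.64 ± 0.19 (adjusted p = 0.0116, a fold of 1.56) at 313 mg/kg-d and 0.44 ± 0.19 (adjusted p = 0.0789) at 427 mg/kg-d. The call at 313 mg/kg-d held in 24 of 24 fits without a single animal, and at 427 mg/kg-d a call was gained without animal 5 or 100 (adjusted p = 0.0429 and 0.0291). The slope was 0.14 per 100 mg/kg-d (SE 0.048, adjusted p = 0.0280), and it missed the threshold without animal 6 or 97 (adjusted p = 0.0617 and 0.0647) and under median-ratio scaling (adjusted p = 0.105). By slope, 2 of 9 members were lower and 1 higher, against 7.73 and 24.4% of all genes.

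**Figure D1:**
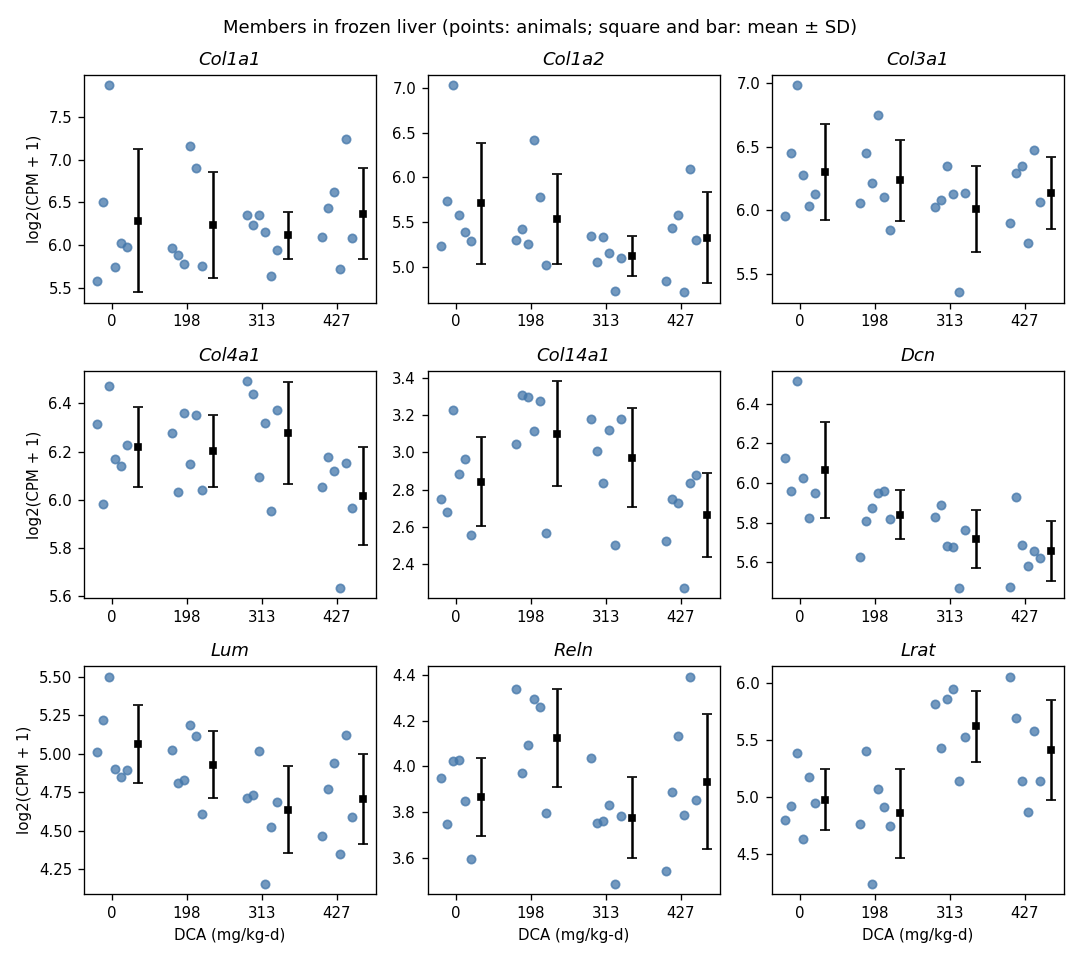
Levels of the 9 members in FROZ liver as log2(CPM + 1) against the dose of DCA in mg/kg-d. Points are the 6 animals of a dose and squares with bars are mean ± SD, and Dcn lies lower at 427 mg/kg-d (median 5.64) than in vehicle animals (median 5.99) while Lrat lies higher at 313 mg/kg-d (median 5.67 against 4.94).

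The fibrillar collagens were not called at any dose, and animals of a dose were spread widely, with a pooled SD of 0.60 for Col1a1, 0.50 for Col1a2 and 0.33 for Col3a1. Col1a1 in FROZ ran from 5.58 to 7.87 with a median of 6.00 in vehicle animals and from 5.72 to 7.24 with a median of 6.26 at 427 mg/kg-d. Col1a2 ran from 5.23 to 7.03 with a median of 5.48 in vehicle animals and from 4.73 to 5.34 with a median of 5.13 at 313 mg/kg-d. Col3a1 ran from 5.95 to 6.98 with a median of 6.20 in vehicle animals and from 5.74 to 6.48 with a median of 6.18 at 427 mg/kg-d. In each of these genes the vehicle range held the highest animal of all, animal 5, and the groups overlapped at every dose. Col1a2 had the lowest adjusted p of the 3 at 313 mg/kg-d, with all 6 animals below the vehicle median, a log2 fold change of -0.59 ± 0.26 (SE) and an adjusted p of 0.0920. The adjusted p became 0.0350 under median-ratio scaling, and without animal 5 the value was -0.32 with an adjusted p of 0.281. At 427 mg/kg-d the log2 fold changes were 0.08 (95% confidence interval -0.54 to 0.71) for Col1a1, -0.38 (-0.91 to 0.15) for Col1a2 and -0.17 (-0.52 to 0.19) for Col3a1, and the sign for Col1a1 turned under median-ratio scaling (-0.061). Without animal 5 the value for Col1a2 at this dose was -0.12 (adjusted p = 0.732).

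Col4a1, whose abundant probe was among those attenuated in the assay, ran from 5.98 to 6.47 with a median of 6.20 in vehicle animals and from 5.63 to 6.18 with a median of 6.09 at 427 mg/kg-d. All 6 animals at 427 mg/kg-d lay below the vehicle median but 4 of 6 lay within the vehicle range, and the log2 fold change was -0.20 ± 0.10 (SE, adjusted p = 0.153). Under median-ratio scaling it was -0.34 with an adjusted p of 0.00964. Col4a2, the partner chain of Col4a1 in type IV collagen, fell by 0.43 on the log2 scale at 427 mg/kg-d (adjusted p = 0.00825), and the difference between both chains was not tested. Col14a1 ran from 2.55 to 3.23 in vehicle animals, from 2.57 to 3.31 at 198 mg/kg-d and from 2.27 to 2.88 at 427 mg/kg-d, with log2 fold changes of 0.26 ± 0.15 and -0.18 ± 0.15 (SE, adjusted p = 0.390 and 0.398) at 198 and 427 mg/kg-d. Reln ran from 3.59 to 4.03 in vehicle animals and from 3.79 to 4.34 at 198 mg/kg-d, where 4 of 6 animals lay above the highest vehicle animal and the log2 fold change was 0.26 ± 0.13 (SE, adjusted p = 0.299). At 427 mg/kg-d Reln ran from 3.54 to 4.39, and its log2 fold change was 0.07 ± 0.13 (adjusted p = 0.741).

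**Figure D2:**
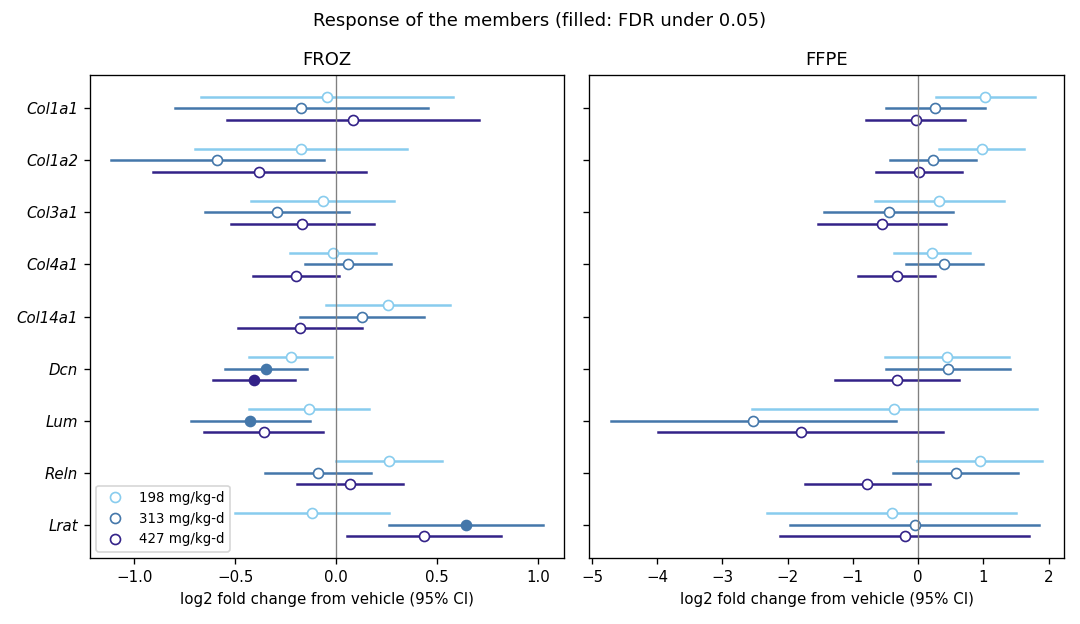
Log2 fold change from vehicle with its 95% confidence interval for each member in FROZ and in FFPE, with a wider axis for FFPE. Filled points passed an FDR under 0.05, which in FROZ are Dcn (-0.35 and -0.41), Lum (-0.43) and Lrat (0.64), and no point is filled in FFPE.

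Between animals of the same dose, the fibrillar collagens and Lum moved together in FROZ, and Lrat less so with the other members. This is a description over 24 animals whose libraries also differ in depth. Deviations from the dose mean were positively correlated in 36 of 36 pairs of members, with a median Pearson's r of 0.54. The share of positive pairs among all genes was not computed. The median gene was itself positive with each member, from r = 0.05 for Lrat to 0.13 for Reln. Col1a1 and Col1a2 had r = 0.95 (Spearman's rho 0.91, and r = 0.90 without the 2 animals farthest from the median), and Col1a2 was the closest of 11270 other genes to Col1a1, where the median gene had r = 0.09. Col1a2 and Col3a1 had r = 0.87 and rho = 0.85, and Lum had r = 0.77 with Col1a1 and 0.78 with Col1a2. Lrat had lower values, with r between 0.04 (Reln) and 0.47 (Col3a1). Its value with Reln lay below that of the median gene with Lrat or with Reln. Without the 2 animals farthest from the median of the first gene, r was -0.07 for Col4a1 with Lrat and -0.04 for Dcn with Lrat, and positive in the other pairs. It was lower for some, as for Col1a1 with Dcn (0.37 from 0.63), and higher for others, as for Lum with Reln (0.69 from 0.60). The gene nearest to Lrat was Cyp26b1, an enzyme that clears retinoic acid and was near the floor here (r = 0.72, mean level 0.38 in vehicle animals), and the genes next to Col4a1 included Nid1, which encodes the basement membrane protein nidogen (r = 0.78), and Col4a2 (r = 0.78), all named after their values were seen. Animal 5 was the highest of the vehicle group in 8 of 9 members, animal 77 the lowest at 313 mg/kg-d in 8 of 9, and animal 100 the lowest at 427 mg/kg-d in 7 of 9. The deviations of Col1a1, Col1a2 and Col3a1 had r = -0.35, -0.34 and -0.49 with those of the reads per library.

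**Figure D3:**
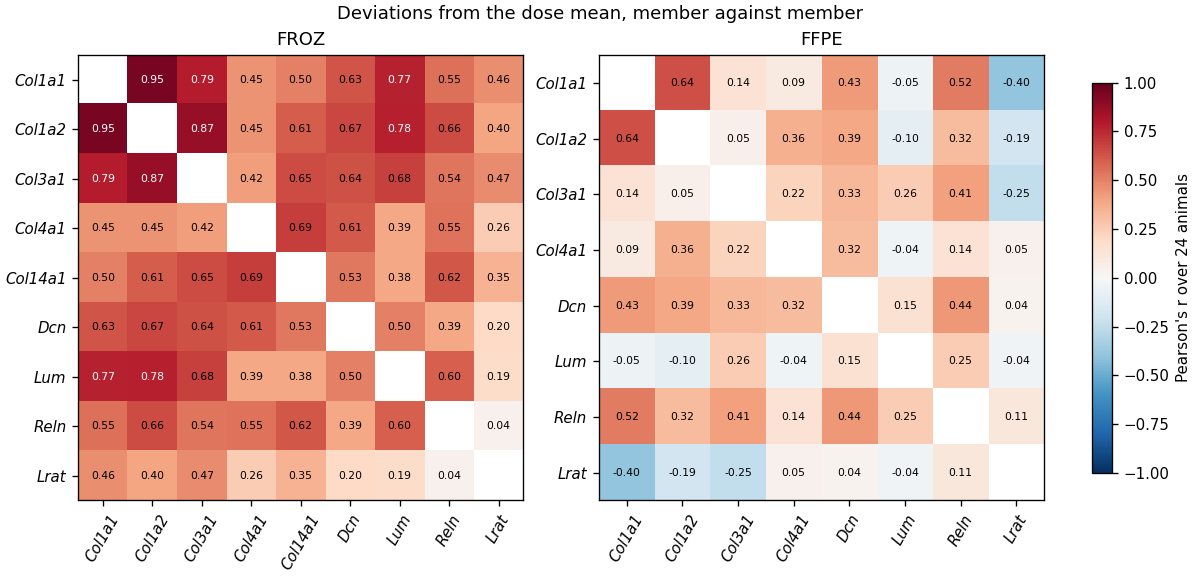
Pearson's r over 24 animals between the deviations of each pair of members from their dose means, in FROZ and in FFPE. In FROZ all 36 pairs are positive and Col1a1 with Col1a2 reaches 0.95, and in FFPE 21 of 28 pairs are positive and the same pair reaches 0.64.

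In FFPE liver none of the 8 members passed the test at any dose. The background was 0.0599, 1.08 and 2.41% of 6673 genes called at 198, 313 and 427 mg/kg-d, 0.0599, 0.809 and 1.81% as DEGs, and 2.17% by slope. In 0.48, 1.57 and 4.48% of genes all 6 treated animals lay outside the vehicle range, as in 0 members. The median log2 fold change of the members was 0.39, 0.25 and -0.33, and that of all genes -0.19, -0.12 and 0.18.

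Col1a1 in FFPE ran from 7.61 to 8.47 with a median of 8.01 in vehicle animals and from 7.86 to 10.98 with a median of 9.06 at 198 mg/kg-d, where 4 of 6 animals lay above the vehicle range. Col1a2 ran from 6.42 to 7.77 with a median of 6.95 in vehicle animals and from 7.37 to 8.69 with a median of 8.01 at 198 mg/kg-d, with 4 of 6 above. The log2 fold changes were 1.03 ± 0.37 (SE, adjusted p = 0.287) and 0.97 ± 0.32 (adjusted p = 0.260), and at 427 mg/kg-d they were -0.04 ± 0.37 and 0.01 ± 0.32 (adjusted p = 1.00 for each). The 198 mg/kg-d group held the FFPE libraries with the fewest mapped reads (1.83 to 5.59 M, and a median of 980.5 genes at 0 against 277.5 in vehicle). Without the 8 libraries in which over 10% of genes were at 0, which leaves 2 of 6 at 198 mg/kg-d, the value for Col1a1 was -0.030 and that for Col1a2 was 0.42. Reln ran from 4.86 to 7.15 in vehicle animals, from 5.54 to 7.85 at 198 mg/kg-d and from 3.60 to 6.35 at 427 mg/kg-d, with log2 fold changes of 0.94 ± 0.47 and -0.78 ± 0.47 (SE, adjusted p = 0.435 and 0.796). Without the same 8 libraries the value for Reln at 198 mg/kg-d was 0.16.

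Col3a1 in FFPE ran from 6.34 to 8.12 in vehicle animals and from 3.30 to 7.60 at 313 mg/kg-d, where animal 76 was at 3.30 and the next at 6.36. Col4a1 ran from 7.72 to 8.70 in vehicle animals and from 7.07 to 8.43 at 427 mg/kg-d, and Dcn from 4.46 to 6.00 and from 4.14 to 5.57. The log2 fold changes at 427 mg/kg-d were -0.56 ± 0.48, -0.33 ± 0.29 and -0.33 ± 0.47 (SE, adjusted p = 0.977, 0.982 and 1.00). The interval for Dcn (-1.28 to 0.62) held both 0 and the FROZ value of -0.41. At 198 and 313 mg/kg-d Dcn in FFPE was at 0.45 ± 0.47 and 0.46 ± 0.47 (SE, adjusted p = 0.735 and 0.768), against -0.23 and -0.35 in FROZ. All 6 FFPE animals at 313 mg/kg-d lay above the vehicle median of Dcn. Genes used by every cell were at 0 in some FFPE libraries (Psmb2, a proteasome subunit, in 3 of 24), so a listed 0 can be a failed detection. Lum was listed at 0 in 7 FFPE libraries, those of animal 54 at 198 mg/kg-d, of 73, 75, 76 and 77 at 313 mg/kg-d and of 97 and 100 at 427 mg/kg-d. Its other values were 3.51 to 5.01 in the 6 vehicle animals, 3.34 to 6.39 in 5 animals at 198 mg/kg-d, 5.63 and 4.05 in animals 74 and 78, and 2.94 to 4.21 in 4 animals at 427 mg/kg-d. The FFPE libraries at 313 mg/kg-d were also shallow, with medians of 3.82 M mapped reads and 630.5 genes at 0. In vehicle these medians were 5.28 M and 277.5, and at 427 mg/kg-d 5.10 M and 134. Lrat was listed at 0 for animals 53 and 73, and otherwise ran from 2.66 to 5.36 in vehicle animals and from 2.58 to 5.34 at 427 mg/kg-d. By counting error alone, a listed 0 allows up to 3 expected reads, which at the depth of these libraries is a level of 0.64 to 1.06. A failed detection is not bound by this limit.

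**Figure D4:**
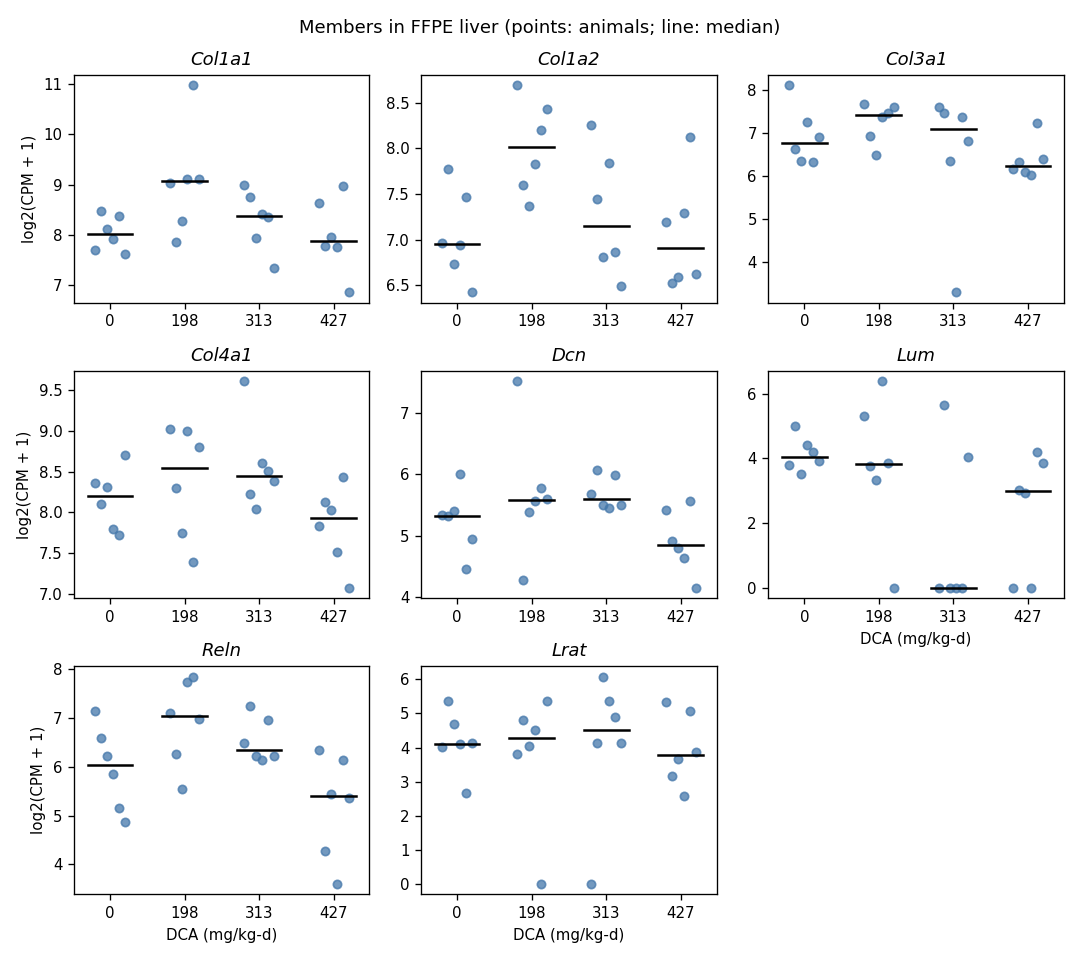
Levels of the 8 members in FFPE liver as log2(CPM + 1) against the dose of DCA in mg/kg-d, with points for the 6 animals of a dose and a line at their median. Lum is listed at 0 in 7 libraries and Lrat in 2, and Col1a1 at 198 mg/kg-d reaches 10.98 in animal 53.

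The spread between animals of a dose was wider in FFPE than in FROZ for each of the 8 members in both tables. The pooled SD rose from 0.60 to 0.74 for Col1a1 and from 0.50 to 0.58 for Col1a2, but from 0.17 to 0.65 for Dcn and from 0.26 to 1.94 for Lum. To compare the response to DCA between preservations, the FROZ level of an animal was subtracted from its FFPE level, and 0 of 8 members passed the test at any dose, against 0.0303% of 6591 genes at the lowest dose, 0% at the middle dose and 0.0303% at the highest. The values with an unadjusted p under 0.05 were 1.07 ± 0.41 for Col1a1 and 1.15 ± 0.43 for Col1a2 at 198 mg/kg-d (SE, log2, adjusted p = 0.372 and 0.369) and -2.10 ± 1.01 for Lum at 313 mg/kg-d (adjusted p = 0.655). By the paper, FROZ and FFPE tissue came from partly different lobes, and isolated RNA was assayed in FROZ but lysed sections in FFPE. Both had been stored for decades, and the paper reports low RNA integrity numbers for RNA isolated from either. The FROZ RNA had been isolated earlier for RNA-Seq, whereas the FFPE tissue was older when its sections were used. Preservation, lobe, input and storage therefore cannot be told apart between the FROZ and FFPE libraries of an animal.

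Whether an animal high in FROZ was also high in FFPE was tested for the 8 members by permuting animals within their dose (100000 permutations, two-sided). Col1a1 had r = 0.46 (permutation p = 0.0234, n = 24) and rho = 0.52 (p = 0.0114), and r = 0.62 without the 2 animals farthest from the median. Lum had r = 0.47 (permutation p = 0.0306, n = 24) and rho = 0.50 (p = 0.0199), and r = 0.52 without those 2 animals. For the other 6 members r ran from -0.22 (Col3a1) to 0.25 (Reln), and the median over 6591 genes was 0.09. With 8 relations tested, neither p passes a Benjamini-Hochberg adjustment at 0.05 (adjusted p = 0.123 for both). Animal 101 was the highest at 427 mg/kg-d in 5 of 9 members in FROZ and in 6 of 8 in FFPE. In contrast, animal 5, the highest vehicle animal in 8 of 9 members in FROZ, was the highest in 0 of 8 in FFPE. Animal 77, the lowest at 313 mg/kg-d in 8 of 9 in FROZ, was the lowest in 0 of 8 in FFPE. For animal 100, the lowest at 427 mg/kg-d, the counts were 7 of 9 and 3 of 8.

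Other genes of these cells and pathways were read in FROZ at 427 mg/kg-d from lists, and each count stands against 22.7% of all genes higher and 7.33% lower at this dose. Of 24 other stellate cell markers, 1 was higher and 3 were lower (median -0.19). The 3 were Angptl6 (-0.69), Sod3 (-0.52), an extracellular superoxide dismutase, and Colec11 (-0.37), a collectin, and the other was Tmem56 (0.70). Pdgfrb, the PDGF receptor of stellate cells, was at -0.063 ± 0.18 (SE, adjusted p = 0.827). Among 12 myofibroblast and smooth muscle genes, 2 were higher and 1 lower, with Tagln at 1.05 (adjusted p = 0.000175), whereas Acta2, the actin of activated stellate cells, was near the floor in vehicle animals (mean level 0.32) and at -0.065 ± 0.14 (adjusted p = 0.767). Of 13 other collagen chains, 3 were lower (Col4a2, Col4a5 and Col18a1 at -0.43, -0.51 and -0.30) and 1 higher (Col12a1 at 0.60).

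Of 23 genes that fold, process and cross-link collagen, 4 were lower and 1 higher, among them Ppib, a prolyl isomerase (-0.65), and Loxl4, a lysyl oxidase (-1.70). The value of Loxl4 ran from -2.86 to -1.70 under the other settings. Of 30 matrix proteoglycans and glycoproteins, 5 were lower and 2 higher, with Omd (osteomodulin, of the same family as Dcn and Lum) at -1.71, Vtn (vitronectin) at -0.90 and Spon2 at 1.81. Of 18 matrix proteases and inhibitors, 3 were higher and 2 lower, with Serpine2 at -1.19 and Mmp2, a gelatinase, at -0.54 among the lower ones. Timp1 was at 0.38 ± 0.32 (SE, adjusted p = 0.403). Of 26 genes of TGF-beta and PDGF signalling, 1 was higher (Pdgfa, 0.75) and 2 lower (Ccn2 at -0.74 and Tgfbr3 at -0.40), and Tgfb1 was at 0.053 ± 0.16 (SE, adjusted p = 0.836), with its sign turned under median-ratio scaling. Of the calls named among these lists, Colec11 held in 10 of 24 fits without a single animal, Col4a5 in 16, Col12a1 and Col18a1 in 17, Tgfbr3 in 18 and Ccn2 in 19.

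Of the 7 listed genes that receive or pass on the reelin signal, 6 were higher at 427 mg/kg-d while Reln was not called. Vldlr, a reelin receptor that also takes up lipoprotein, was at 1.81, and the adaptor Crk at 0.41, while the call of Rapgef1 (0.53) was lost under median-ratio scaling (adjusted p = 0.0724). The size of the Vldlr value depended on the setting (1.74 to 3.06 under 6 others), and its call held in each. Of 26 genes of retinoid storage and metabolism beside Lrat, 9 were higher and 1 lower, against 22.7 and 7.33% of all genes, with a median of 0.25 against 0.10 over all genes. Rdh16, a retinol dehydrogenase, was at 1.99, Dhrs4 at 0.77, Aldh1a7 at 0.74, and Rarb, a retinoic acid receptor that retinoic acid induces, at 1.00. Under the other settings Rdh16 ran from 1.89 to 2.53 and Rarb from 0.91 to 1.46. Most of the enzymes on this list are also made by hepatocytes.

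**Figure D5:**
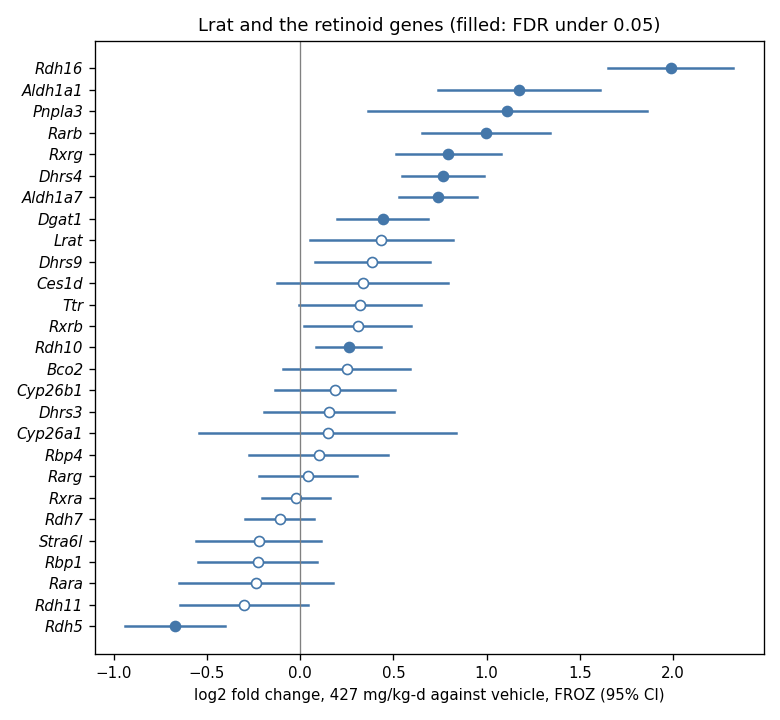
Log2 fold change at 427 mg/kg-d against vehicle in FROZ, with 95% confidence intervals, for Lrat and 26 other retinoid genes. Filled points passed an FDR under 0.05 (9 higher, led by Rdh16 at 1.99, and 1 lower), and Lrat at 0.44 is open.

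Markers of other liver cells were counted in FROZ at the same dose, to be read against the same 7.33% of genes lower and 22.7% higher. Of 14 Kupffer cell and macrophage markers, 6 were lower at 427 mg/kg-d (median -0.40, C1qb at -0.54), while Clec4f was at -0.19 ± 0.15 (SE, adjusted p = 0.370). The summed level of these markers ran from 409 to 592 CPM (median 485) in vehicle animals and from 288 to 485 CPM (median 392) at 427 mg/kg-d. Of 20 sinusoidal endothelial markers 1 was lower (Stab2 at -0.66), and their sum ran from 709 to 832 (median 748) and from 657 to 757 CPM (median 740). Of 10 portal fibroblast and mesothelial markers 1 was lower (Dpt at -0.58, held in 19 of 24 fits without a single animal). Their sums were 41.3 to 119 (median 45.9) and 36.1 to 77.3 CPM (median 43.4). Of 7 cholangiocyte markers 1 was higher (Krt23 at 3.17), with Krt19 at 0.36 ± 0.20 (SE, adjusted p = 0.181). Of 15 hepatocyte markers 3 were lower and 1 higher, and of 13 blood and lymphocyte markers 3 were lower. The summed level of the 9 members ran from 370.3 to 775 CPM (median 382) in vehicle animals and from 289 to 532 CPM (median 397) at 427 mg/kg-d. In FFPE at 427 mg/kg-d, 1 of 17 matrix proteoglycans and glycoproteins and 3 of 14 hepatocyte markers were lower, and 0 genes of the other lists were called. These FFPE counts stand against 2.41% of 6673 genes called in either direction. The part of these cells in the values of Dcn, Lum and Lrat was not tested.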

How the data were processed

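Expression was measured by TempO-Seq in 48 libraries, 1 FROZ and 1 FFPE library from each of 24 mice, and libraries were grouped by the dose and preservation in their titles. Both tables hold log2 values, log2(CPM + 1), which the authors made and deposited from reads aligned to mm10 with STAR (version 2.6 in the submitters' processing notes) and counted in Partek Flow by expectation maximization. The authors removed genes with a low geometric mean and scaled each table separately to CPM, so levels were not tested across tables. Attenuation of abundant probes lowers their level equally in all libraries. Here limma (3.58.1, R 4.3.3) was fitted to the 24 libraries of a table with a mean-dependent variance prior, for each dose against vehicle and for a slope on dose, and to the FFPE level less the FROZ level per animal, so that the animal is a block. P-values were adjusted over all genes of the table (Benjamini-Hochberg), and fold changes are on the log2(CPM + 1) scale, which understates changes of low genes. The scripts were tested on simulated data.

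The mapped reads of a library were recovered from the step of its 600 lowest values, of which 94.3 to 97.3% (FROZ) and 88.0 to 93.4% (FFPE) lay within 0.05 of a whole read. A 0 allows up to 3 expected reads, and such limits cover counting error only. The pairing comes from the animal numbers in the labels. In 4815 genes that averaged 10 CPM or more in each table, deviations of the same animal had a median r of 0.13, against -0.02 for other animals of its dose. Alternatives were an offset of 0.1 CPM, median-ratio scaling, a filter at a mean of 1 CPM, no trend in the variance prior, array quality weights, the libraries of 2 groups alone, no block, each animal left out and, chosen after seeing the data, FFPE without libraries with over 10% of genes at 0. The members and the gene lists were chosen with earlier results of these data known. Named genes are all members, up to 4 called genes of each other list with the lowest FDR at 427 mg/kg-d in FROZ, and Pdgfrb, Acta2, Timp1, Tgfb1, Stab2, Clec4f and Krt19. A gene of the list of matrix proteases and inhibitors that this rule names is counted but not reported here. Nothing says that the mice of a dose were caged apart, so p-values measure the spread between these mice.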

Additional observations from a re-analysis of the deposited data

Results flagged for a closer look

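In 8 of 68 groups of 6 animals, the highest or lowest library of a member lay far from the others by Dixon's ratio (gap to the nearest over the whole range). Chance flags about 1 in 20 groups. In FROZ these were Col1a2 of vehicle animal 5 (7.03, next 5.73, ratio 0.723), Col3a1 of animal 77 at 313 mg/kg-d (5.35, next 6.02, ratio 0.671) and Col14a1 of animal 54 at 198 mg/kg-d (2.57, next 3.04, ratio 0.642). In FFPE they were Col3a1 of animal 76 at 313 mg/kg-d (3.30, next 6.36, ratio 0.712) and Col3a1 of animal 101 at 427 mg/kg-d (7.23, next 6.41, ratio 0.686). Col4a1 of animal 73 at 313 mg/kg-d was also apart (9.61, next 8.61, ratio 0.639). Lrat was listed at 0 in animal 53 at 198 mg/kg-d (next 3.82, ratio 0.711) and in animal 73 at 313 mg/kg-d (next 4.12, ratio 0.678).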

How the results depend on the processing

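The count of members called in FROZ at 427 mg/kg-d was 1, and became 3 under median-ratio scaling and 2 with array quality weights, and it ran from 1 to 2 when single animals were left out. Lum then passed at 427 mg/kg-d (adjusted p = 0.00795 with the scaling and 0.0354 with the weights), as did Col4a1 with the scaling. All other counts of called members stayed within 1.5 times their value under the alternatives run, but the members behind a count could change. For the FROZ slope under median-ratio scaling, Lrat lost its call (adjusted p = 0.105). Col1a2 (-0.149, adjusted p = 0.0488) and Col4a1 (-0.069, adjusted p = 0.0240) gained one, so that every member called by slope was then lower. Of the named genes outside the members, Cald1, Col12a1, Hnf4a, Mmp15 and Rapgef1 lost their calls at 427 mg/kg-d in FROZ under median-ratio scaling (adjusted p = 0.663, 0.0980, 0.0525, 0.0870 and 0.0724), and Cald1, Colec11, Col4a5, Col12a1, Dpt and Tgfbr3 with the libraries of both groups alone (0.0502 to 0.0923). Colec11 also lost its call with array quality weights (0.0659), Col4a5 with an offset of 0.1 CPM (0.0611) and Cald1 without a trend in the variance prior (0.0625). The replicate block changed no call: without it 0 members differed between FFPE and FROZ in response at any dose, as with it. Some values that passed no test changed sign, among them FFPE values at 198 mg/kg-d that were not near 0 (Col1a1 at 1.03, Dcn at 0.45 and Lrat at -0.40). Under median-ratio scaling these were in FROZ Col4a1 at 313 mg/kg-d (-0.079), Col1a1, Reln and Tgfb1 at 427 mg/kg-d (-0.061, -0.069 and -0.066) and the slope of Col1a1 (-0.031), and in FFPE Col1a2 at 427 mg/kg-d (-0.096). With array quality weights they were in FROZ Col1a1 and Col3a1 at 198 mg/kg-d (0.0030 and 0.0021), Tgfb1 at 427 mg/kg-d (-0.031) and the slope of Col1a1 (-0.000702), in FFPE Dcn and Lrat at 198 mg/kg-d (-0.14 and 0.15), Lrat at 313 mg/kg-d (0.42) and Col1a2 at 427 mg/kg-d (-0.057), and the response difference of Lrat at 198 mg/kg-d (0.34). Without the sparse FFPE libraries they were Col1a1, Col4a1, Dcn and Lrat at 198 mg/kg-d (-0.030, -0.10, -0.39 and 0.23), Lrat at 313 mg/kg-d (0.35) and Col1a2 at 427 mg/kg-d (-0.00890). The cause was not tested.

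When single animals were left out, values in FROZ ran from -0.23 to 0.27 (Col1a1), -0.35 to 0.090 (Col1a2), -0.17 to 0.069 (Col3a1), -0.063 to 0.035 (Col4a1) and -0.23 to 0.0030 (Lrat) at 198 mg/kg-d, and from -0.31 to 0.15 (Col1a1) at 313 mg/kg-d. The highest dose gave ranges from -0.093 to 0.40 (Col1a1), -0.025 to 0.15 (Reln), -0.14 to 0.033 (Acta2), -0.15 to 0.016 (Pdgfrb) and -0.078 to 0.15 (Tgfb1), and slopes from -0.031 to 0.078 (Col1a1) and -0.021 to 0.0099 (Reln). In FFPE they ran from -0.73 to 0.35 (Lrat) and -0.89 to 0.39 (Lum) at 198 mg/kg-d, -0.68 to 0.18 (Col3a1) and -0.45 to 0.76 (Lrat) at 313 mg/kg-d, and -0.23 to 0.19 (Col1a1), -0.20 to 0.15 (Col1a2) and -0.50 to 0.071 (Lrat) at 427 mg/kg-d. FFPE slopes ran from -0.060 to 0.027 (Col1a1), -0.060 to 0.013 (Col1a2) and -0.092 to 0.030 (Lrat). Response differences ran from -0.63 to 0.48 (Lrat) and -0.70 to 0.46 (Lum) at 198 mg/kg-d, -0.47 to 0.50 (Col3a1) and -1.05 to 0.16 (Lrat) at 313 mg/kg-d, and -0.42 to 0.049 (Col1a1), -0.22 to 0.013 (Col4a1) and -0.062 to 0.24 (Dcn) at 427 mg/kg-d. By counting error alone, a listed 0 of Lum (7 FFPE libraries) or of Lrat (2 FFPE libraries) allows up to 3 expected reads.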
